A study of Mus musculus with 15 samples.

Results

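The podocyte slit diaphragm and foot process were followed through 8 genes, Nphs1, Kirrel, Cd2ap, Ddn, Synpo, Podxl, Ptpro and Plce1, in ribosome-bound and unbound RNA of the mouse kidney. Members were all probe sets that the platform annotation assigns to these symbols, which gave 14 of the 45037 probe sets and 8 of the 18193 genes on the array. Podocytes are the epithelial cells that cover the glomerular capillaries. Their interlocking foot processes are joined by the slit diaphragm, a cell junction that forms the last layer of the filtration barrier. Nephrin, encoded by Nphs1, and its binding partner Neph1, encoded by Kirrel, span the slit, and adaptors and actin-binding proteins tie them to the cytoskeleton of the foot process. Inherited loss of several of these proteins causes nephrotic syndrome. In RefSeq's GRCm38.p6 annotation the genes lie at chr7:30458207-30488623 (Nphs1), chr3:87078593-87174777 (Kirrel), chr17:42748887-42876707 (Cd2ap), chr15:98803782-98807925 (Ddn), chr6:31519493-31563937 (Podxl), chr6:137252299-137464634 (Ptpro) and chr19:38481034-38785105 (Plce1), and Synpo lies on chromosome 18.

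All mice carried Col1a1-eGFPL10a, a transgene in which a collagen 1α1 promoter and enhancer drive the ribosomal protein L10a fused to eGFP, on a mixed C57/129sv background. Both sexes were used, at ages the labels give as postnatal day 14 to 300. Translating ribosome affinity purification (TRAP) pulls the tagged ribosomes out of a lysate with the mRNA on them. Sham surgery provided the kidneys of day 0, and unilateral ureteral obstruction (UUO), a ligation that blocks urine flow and leads to fibrosis, those of day 2 and day 5. Bound RNA of day 0 (arrays 1 to 3), day 2 (arrays 7 to 9) and day 5 (arrays 10 to 12) is labelled as pericyte RNA, from periarterial medullary fibroblasts, and unbound RNA of day 0 (arrays 4 to 6) and day 5 (arrays 13 to 15) as medulla. Bound and unbound RNA therefore come from mice with the same transgene. Podocytes lie in the glomeruli of the cortex and are named in neither label. Whether the 3 arrays of each group stand for single animals or pools is not in the labels, so p-values measure only the spread between these samples, and this number of arrays limits their precision.

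Levels are log2 values of the deposited intensity, quantile normalized between arrays, and differences are on the same log2 scale. Adjusted p-values come from limma, over all 16864 genes tested, with 0.05 as the threshold. The highest of 27 negative-control probe sets, between 3.41 and 5.09 on the normalized scale, served as the floor of an array. Arrays 6, 9, 12 and 15 were brighter than the rest, with median intensities of 94.3 to 198.8 against 16.4 to 66.0. Array 11, a bound array of day 5, stood apart by its Gapdh 5′ to 3′ ratio, which was 0.0269 there and 0.1777 to 0.5831 elsewhere. In the bound RNA of day 0, 9 of 10 fibroblast genes were higher than in unbound RNA (median difference 2.25, all genes -0.13), among them Col1a1 at 2.43 ± 0.19 (adjusted p = 8.6e-05). In the RNA labelled medulla, the proximal tubule phosphate transporter Slc34a1, a cortical marker, read 11.69, 10.21 and 11.43 on day 0, well above the floor.

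Windows before a start site are shown for Nphs1 and Ptpro, which had the largest falls in bound RNA after obstruction among the 5 genes with a window. Ddn, which fell about as much (-3.32 against -3.45 and -3.34), had none, and neither had Podxl and Synpo. Each line gives the 250 bases before the start site that the RefSeq table holds for the gene (GRCm38.p6), read 5′ to 3′ on its strand, with CG dinucleotides in capitals. The Ptpro window, at chr6:137252049-137252298 (plus strand), ends at the outer start of the gene. The Nphs1 window, at chr7:30459808-30460057 (plus), ends before a start site that lies 1851 bases inside the gene as annotated, so it is not the sequence before the outermost start.
Nphs1: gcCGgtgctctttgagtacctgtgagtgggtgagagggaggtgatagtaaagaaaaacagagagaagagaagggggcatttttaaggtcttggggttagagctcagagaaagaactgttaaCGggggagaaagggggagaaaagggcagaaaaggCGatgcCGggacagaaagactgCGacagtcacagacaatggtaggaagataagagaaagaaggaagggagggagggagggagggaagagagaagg
Ptpro: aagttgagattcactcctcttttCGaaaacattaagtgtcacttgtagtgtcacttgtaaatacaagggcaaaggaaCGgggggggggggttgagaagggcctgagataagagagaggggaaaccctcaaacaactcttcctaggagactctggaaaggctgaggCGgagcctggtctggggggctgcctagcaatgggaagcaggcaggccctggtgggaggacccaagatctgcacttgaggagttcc

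These windows held 5 (Nphs1) and 3 (Ptpro) CG dinucleotides, where the median of 32851 RefSeq windows of the same length was 6. Searched on both strands, the homeobox core TAATTA, the forkhead motif GTAAACA, the Maf-type motif TGCTGAC and the zinc finger motif GCGTGGG had 0 matches in both windows, against 4.84%, 3.17%, 3.81% and 4.3% of all windows with a match. The E-box CANNTG, present in 66.2% of all windows, had 3 matches in Ptpro and 0 in Nphs1. The windows of Kirrel, Cd2ap and Plce1 end at start sites 240, 283 and 43163 bases inside their genes and are not shown.

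In kidneys without obstruction, bound RNA was far richer than unbound RNA in 7 of the 8 genes. The largest differences were those of Ddn, at 6.35 ± 0.60 or 81.3-fold, Nphs1, at least 39.6-fold, and Ptpro, at 5.09 ± 0.82 or 34.0-fold. Synpo was 9.55-fold, Plce1 5.04-fold, Kirrel 4.73-fold and Podxl 3.52-fold higher in bound RNA. Cd2ap was the exception and was not called in either direction. Over all genes tested, 4.81% were called higher and 4.1% lower in bound RNA on day 0, and the median difference of the 8 genes was 2.79 against -0.13 for all genes.

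Of the proteins that span the slit, nephrin has its mRNA almost only in podocytes of the kidney. Nphs1 read 10.91, 8.92 and 8.83 in bound RNA of day 0, and 4.24, 2.51 and 3.77 in unbound RNA. Unbound RNA of day 0 lay on average at the floor, so only a bound on the fold can be given (at least 39.6-fold, limma adjusted p = 0.00513). Kirrel, which binds nephrin across the slit, read 9.27, 9.37 and 9.23 in bound and 6.97, 7.07 and 7.09 in unbound RNA. The arrays of each fraction lay close together, and the difference was 2.24 ± 0.43 (adjusted p = 0.00827). Cd2ap, an adaptor that links the nephrin complex to actin and is also made in many other cell types, read 12.24, 11.79 and 12.12 in bound and 12.47, 12.60 and 12.61 in unbound RNA. Its bound arrays were all below its unbound arrays, but the difference of -0.51 ± 0.23 had an adjusted p of 0.185 and a 95% interval of -0.999 to -0.017.

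Among the genes of the actin skeleton, Ddn (dendrin, which binds nephrin and CD2AP and can move to the nucleus) read 12.44, 11.73 and 11.63 in bound RNA and 6.17, 5.12 and 5.47 in unbound RNA (adjusted p = 0.00016). Every bound array of Ddn was more than 5 log2 units above every unbound array. Synpo (synaptopodin, which organises actin in foot processes) read 13.03, 12.31 and 12.48 against 9.48, 9.21 and 9.37, a difference of 3.26 ± 0.27 (adjusted p = 8.63e-05). It had the smallest standard error of the 7 genes called.

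On the cell surface, Podxl (podocalyxin, the sialic acid-rich protein that keeps foot processes apart, also made by endothelium) read 13.43, 13.12 and 12.97 in bound and 11.13, 11.59 and 11.36 in unbound RNA (1.81 ± 0.34, adjusted p = 0.00806). Ptpro, a receptor tyrosine phosphatase of the apical foot process membrane, read 12.46, 11.08 and 10.92 against 7.29, 5.65 and 6.26 (adjusted p = 0.00364). Plce1, a phospholipase C whose loss causes nephrotic syndrome, read 10.96, 10.01 and 9.77 against 7.84, 8.19 and 7.72 (2.33 ± 0.41, adjusted p = 0.00563). In all 8 genes the bound and unbound arrays of day 0 did not overlap, as in 36.8% of all genes. The 7 calls were kept when any 1 array was left out, where 3.1% to 6.82% of all genes were called. They were also kept with brightness as a covariate, but without the 4 bright arrays only 2 were called. That fit called 2.03% of all genes, against 8.91% in the main fit. The 5 genes that lost their call had adjusted p-values of 0.0559 to 0.0694. In those measured in both fractions (Podxl, Plce1, Kirrel and Ptpro) the differences were then 1.92, 2.24, 2.26 and 5.05, close to those with all arrays. With array weights, a setting that called 25.5% of all genes, Cd2ap was called lower (-0.65, adjusted p = 0.0136).

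**Figure D1:**
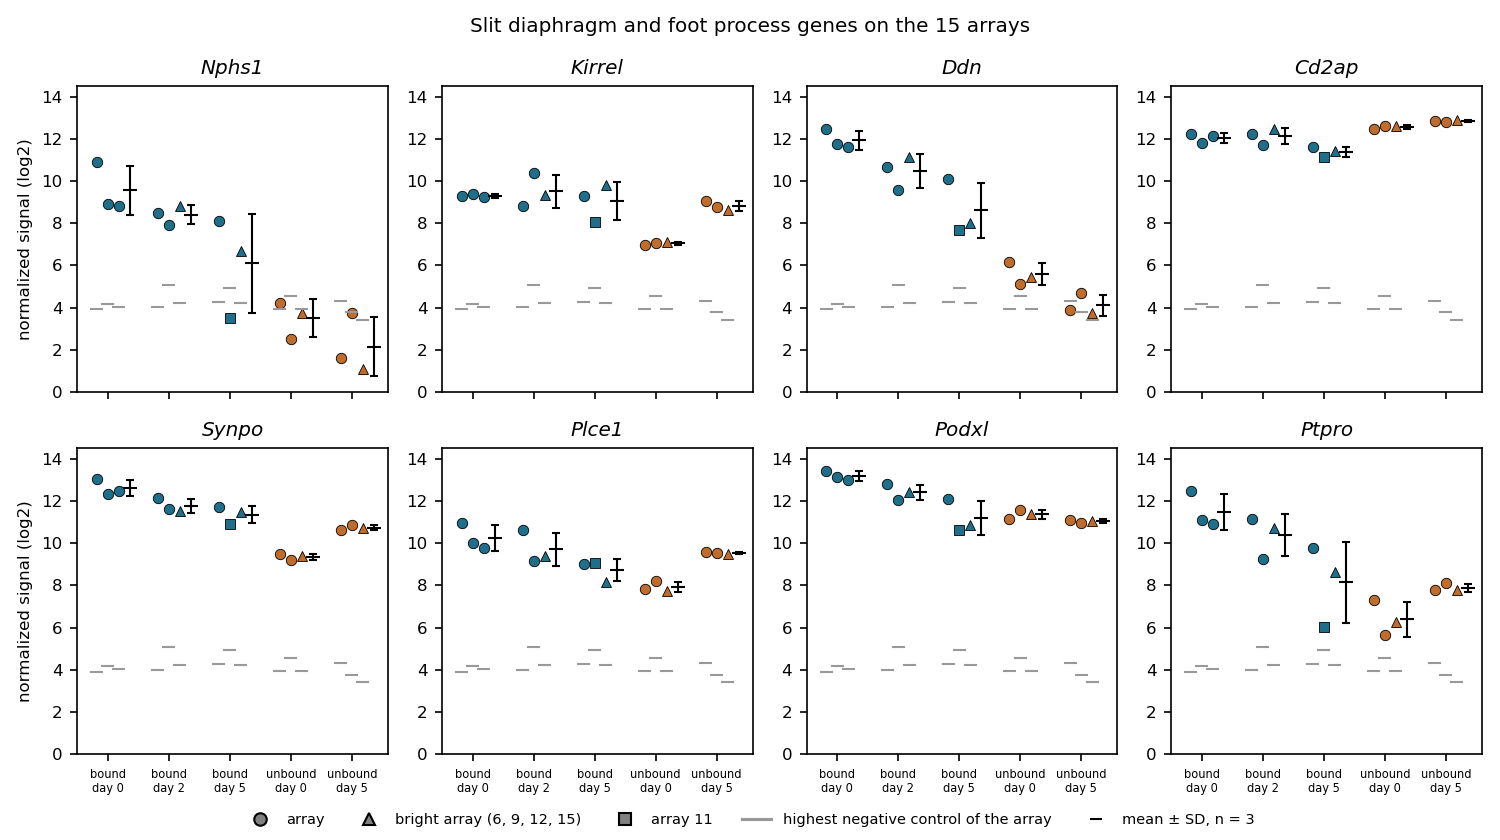
Normalized log2 signal (vertical axis) of each of the 8 genes on each of the 15 arrays, by group, with the mean and SD of 3 arrays as black bars and the highest negative control of each array as a grey line. Nphs1 lies near or under the grey lines in unbound RNA of both days and on array 11, while Cd2ap lies highest in unbound RNA.

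After 5 days of obstruction, the bound fraction was richer in 2 of the 8 genes and poorer in 1. Ddn was 22.6-fold and Nphs1 at least 4.80-fold higher in bound than in unbound RNA, and Cd2ap was 2.75-fold lower. Synpo, Ptpro, Kirrel, Podxl and Plce1 were not called. Over all genes, 6.37% were called higher and 7.74% lower, and the median of the 8 genes was 0.25 against 0.03 for all genes.

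Ddn read 10.10, 7.70 and 8.03 in bound RNA of day 5 and 3.87, 4.70 and 3.77 in unbound RNA, with no overlap (4.50 ± 0.60, adjusted p = 0.00246). Its unbound levels of day 5 were near the floor, and array 13 lay under it (3.87 against 4.32), so the size of this difference is less certain. Nphs1 read 8.10, 3.52 and 6.68 in bound RNA and 1.62, 3.73 and 1.12 in unbound RNA. All unbound arrays were at or below their floors, and so was bound array 11, so the groups overlapped (at least 4.80-fold, adjusted p = 0.0278). This call was lost without array 10, 12, 13 or 15 (adjusted p = 0.0817 to 0.0988), without all bright arrays (adjusted p = 0.263), in a fit of only these 2 groups (adjusted p = 0.0885) and with brightness as a covariate (adjusted p = 0.0514), and it was kept without array 11 (adjusted p = 0.00855). Over all genes, 7.52%, 8.06%, 6.52% and 5.84% were called without array 10, 12, 13 and 15. That share was 10.3% without array 11 and 14.1% in the main fit. With the unbound arrays at or below the floor, differences of Nphs1 under these settings have no measured size. Ddn lost its call only without the bright arrays (4.55, adjusted p = 0.0664), and was 4.26 within the bright and 4.62 within the other arrays. The fit without the bright arrays called 0 of 16521 genes on the array in this comparison, so lost calls there are not particular to these genes.

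Cd2ap read 11.59, 11.13 and 11.41 in bound RNA and 12.82, 12.79 and 12.90 in unbound RNA of day 5, without overlap (-1.46 ± 0.23, adjusted p = 0.00368). The difference was -1.49 within the bright and -1.44 within the other arrays. With arrays centred on their medians in place of quantile normalization, it was -0.69 and not called (adjusted p = 0.147), while Synpo was then called at 1.18 (adjusted p = 0.03). That scaling moved the median difference of all genes from 0.03 to 0.41, and the share of higher among all calls from 45.2% to 67.9%. Without the bright arrays, Cd2ap was at -1.52 with an adjusted p of 0.0771.

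The other 5 genes did not pass on day 5. In Synpo and Plce1 every array of 1 fraction was above every array of the other. The share of all genes separated in this way on day 5 is not given here. Separation on day 5 therefore cannot be weighed, here or for Ddn and Cd2ap. On day 0 the share was 36.8%. Both Synpo and Plce1 were called with array weights (0.84, adjusted p = 0.00363, and -0.76, adjusted p = 0.0387), where 35.8% of all genes were called. Synpo read 11.71, 10.90 and 11.46 in bound and 10.63, 10.85 and 10.73 in unbound RNA (0.62 ± 0.27, adjusted p = 0.139, 95% interval 0.04 to 1.20). Podxl read 12.09, 10.62 and 10.84 against 11.12, 10.94 and 11.05 (0.15, interval -0.59 to 0.89). Ptpro read 9.77, 6.04 and 8.63 against 7.77, 8.10 and 7.79 (0.26, interval -1.53 to 2.05). Array 11 was the lowest bound array in all 3, and by far so in Ptpro. Kirrel read 9.28, 8.08 and 9.81 in bound and 9.05, 8.78 and 8.61 in unbound RNA (0.24, interval -0.68 to 1.16). Plce1 read 9.03, 9.04 and 8.14 in bound and 9.60, 9.55 and 9.51 in unbound RNA (-0.82, interval -1.70 to 0.07). All bound arrays of Plce1 were thus above all unbound arrays on day 0 and below them on day 5. Sign and size of the Podxl, Ptpro and Kirrel values depended on single arrays, with -0.30 for Podxl and -0.55 for Ptpro without array 10, and -0.14 for Kirrel without array 12.

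The bound minus unbound difference was lower on day 5 than on day 0 in the 7 genes with group means above the floor in both fractions. Ddn was only just above it in unbound RNA of day 5 (mean 4.11, floor 3.84). No change is given for Nphs1, which was at the floor in unbound RNA of both days. The change of enrichment passed for 0 of the 8 genes in limma, and for 0.0178% of all genes. At an unadjusted p under 0.05 there were 7, all but Nphs1. The share of all genes at that unadjusted threshold is not given here, so this count cannot be weighed. The values were -4.83 ± 1.17 for Ptpro (adjusted p = 0.152), -3.15 ± 0.58 for Plce1 (adjusted p = 0.071) and -2.64 ± 0.38 for Synpo (adjusted p = 0.0546). Kirrel was at -2.0, Ddn at -1.85, Podxl at -1.67 and Cd2ap, whose difference grew more negative, at -0.95. The median of the 7 was -2.0 against 0.09 for all genes. Medians were also negative in every other gene list read below, from -0.36 for mesangial genes to -1.69 for podocyte regulators. Endothelial genes had -1.515 and proximal tubule genes -1.07, so a negative change was not particular to the members. Synpo passed with a pseudocount of 16, the stricter filter, only the 4 groups of the contrast, array weights or the trended prior, and without array 10 (-2.80, adjusted p = 0.0477), and Plce1 with 4 of these settings. With array weights Ptpro and Kirrel passed as well. Array weights called 11.5% of all genes for this change, the fit of only the 4 groups 2.0%, the trended prior 0.35%, the pseudocount of 16 0.279%, the stricter filter 0.131% and the fit without array 10 0.036%. The bound arrays of day 0 and day 5 also enter the comparisons between days, so those values are not independent of these.

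**Figure D2:**
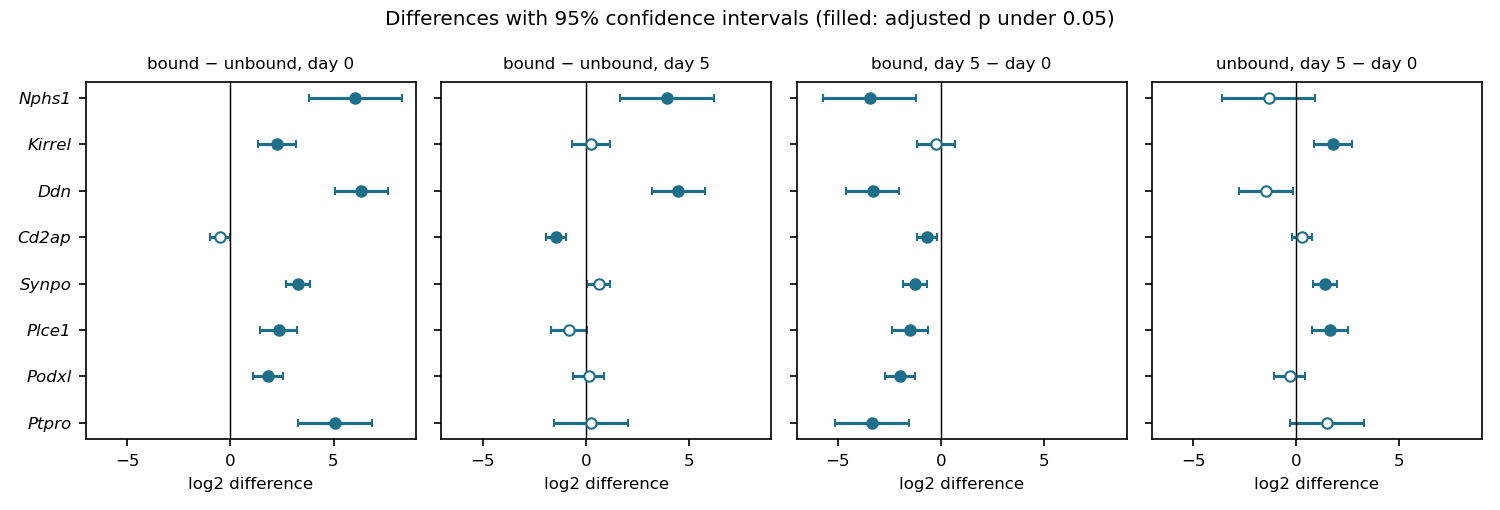
Differences on the log2 scale (horizontal axis) of the 8 genes in 4 comparisons, as points with 95% confidence intervals from limma, filled where the adjusted p is under 0.05. On day 0, 7 genes lie to the right of 0 and are filled, and on day 5 the filled points are Nphs1, Ddn and, to the left, Cd2ap. The Nphs1 points for bound against unbound RNA and for unbound RNA between days rest on unbound levels at the floor.

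In bound RNA, 7 of the 8 genes fell between day 0 and day 5 of obstruction, and Kirrel did not pass. Nphs1 fell by 3.45 ± 1.04, Ptpro by 3.34 ± 0.82 and Ddn by 3.32 ± 0.60 on the log2 scale. Podxl fell by 1.99 ± 0.34, Plce1 by 1.51 ± 0.41, Synpo by 1.25 ± 0.27 and Cd2ap by 0.67 ± 0.23. Over all genes 9.99% were called lower and the median difference was 0.12, against -1.75 for the 8 genes. In whole fractions such as these, fewer cells of a type and less RNA per cell cannot be told apart, and here a smaller share of tagged ribosomes cannot either.

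The adjusted p-values (limma) were 0.0314 for Nphs1, 0.0131 for Ptpro, 0.00237 for Ddn, 0.00183 for Podxl, 0.0199 for Plce1, 0.00634 for Synpo and 0.0486 for Cd2ap. In these 7 genes the arrays of day 0 and day 5 did not overlap, as in 16.7% of all genes in this direction. The count of 7 was reached with no single array left out, and was 4 without array 1, 4 without array 12, and 5 or 6 without the others. Leaving out 1 array called 14.8% to 21.3% of all genes, against 23.7% in the main fit. Nphs1 lost its call without any of arrays 1, 2, 3, 11 and 12 (adjusted p = 0.0501 to 0.102), Cd2ap without 1, 3, 10, 11 or 12 (0.0629 to 0.139) and Plce1 without 1 or 12 (0.0666 and 0.073). Ddn, Podxl, Ptpro and Synpo were called whichever array was left out. A fit of only these 2 groups called 2 genes, and one without the bright arrays 3. Over all genes these fits called 13.9% and 13.2%, against 23.7% in the main fit. With medians centred, where the median over all genes was 0.34 in place of 0.12 and the share of higher among all calls 68.8% in place of 57.9%, Synpo (-0.90, adjusted p = 0.0584) and Cd2ap (-0.29, 0.558) lost their calls. Synpo also lost it with the mean of all probe sets (-0.95, adjusted p = 0.296), and Nphs1 (-1.94, 0.128) and Cd2ap (-0.42, 0.0828) with array weights. Cd2ap was not called without the filter, with every probe set tested on its own or with brightness as a covariate either (0.0525 to 0.0937).

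Array 11, with its low Gapdh ratio, was the lowest bound array of day 5 in 7 of the 8 genes, Plce1 being the other. Without it Nphs1 was -2.16 (adjusted p = 0.102), Ptpro -2.25 (0.0351), Ddn -2.82 (0.0114), Podxl -1.66 (0.00808), Plce1 -1.64 (0.0301), Synpo -1.0 (0.0243) and Cd2ap -0.53 (0.139). Of the 7 genes, 5 still passed without the array, where 18.8% of all genes were called, and the differences were smaller in all but Plce1. Kirrel turned from -0.23 to 0.26. Nphs1, on array 11 alone among the bound arrays, lay under its floor (3.52 against 4.92).

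On day 2 of obstruction, none of the genes passed in bound RNA against day 0 (limma), where 9.25% of all genes were called. At an unadjusted p under 0.05 there were 3 of 8, and the share of all genes at that threshold is not given. Means were lower in 6 of 8, between -1.48 for Ddn and -0.53 for Plce1. Nphs1 read 8.50, 7.93 and 8.80 on day 2, Ddn 10.67, 9.56 and 11.13, Synpo 12.15, 11.64 and 11.51 and Podxl 12.78, 12.05 and 12.41, and in these 4 genes every array lay below every array of day 0, as in 10.0% of all genes. Ptpro read 11.13, 9.25 and 10.74 and Plce1 10.61, 9.15 and 9.40, and both overlapped with day 0. Kirrel read 8.83, 10.38 and 9.34 (0.23 ± 0.43) and Cd2ap 12.23, 11.69 and 12.46 (0.08 ± 0.23), with intervals of -0.69 to 1.16 and -0.41 to 0.57. Synpo, at -0.84 ± 0.27 (adjusted p = 0.0694), passed without array 7 (-1.03, adjusted p = 0.0259), where 16.2% of all genes were called.

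Between day 2 and day 5, 0 of the genes passed in bound RNA (limma), where 0.587% of all genes were called. At an unadjusted p under 0.05 there were 6, again without a share of all genes to weigh the count. Values lay between -2.31 for Nphs1 and -0.41 for Synpo. Without array 8, Ddn, Podxl and Cd2ap were called, where 7.77% of all genes were called, and without array 10, Podxl, where 0.191% were. For Nphs1, Ddn, Synpo, Podxl, Ptpro and Plce1 the bound group means thus stood in the order day 0, day 2, day 5, with neighbouring days overlapping from day 2 to day 5 in all but Plce1.

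In unbound RNA, 3 of the genes rose between day 0 and day 5, Kirrel by 1.77 ± 0.43, Plce1 by 1.64 ± 0.41 and Synpo by 1.38 ± 0.27. Over all genes 6.43% were called higher. Kirrel went from 6.97, 7.07 and 7.09 to 9.05, 8.78 and 8.61 (adjusted p = 0.0202), Plce1 from 7.84, 8.19 and 7.72 to 9.60, 9.55 and 9.51 (adjusted p = 0.0236) and Synpo from 9.48, 9.21 and 9.37 to 10.63, 10.85 and 10.73 (adjusted p = 0.00661). In each, every array of day 5 was above every array of day 0, as in 24.3% of all genes. Ptpro, at 1.49 ± 0.82 (adjusted p = 0.304), Cd2ap at 0.28, Podxl at -0.32 and Ddn at -1.47 (adjusted p = 0.147) did not pass, and Nphs1 was at the floor on both days, so no fold is given. With the mean of all probe sets Synpo was at 0.71 (adjusted p = 0.551) and Kirrel at 0.43 (0.458), so that both lost the call. Synpo was called whichever array was left out, whereas Kirrel was lost without 4, 5, 6, 13 or 14 (adjusted p = 0.057 to 0.0868) and Plce1 without 4, 6, 13, 14 or 15 (0.0599 to 0.0849), which left 1 call without arrays 4, 6, 13 or 14 and 2 without 5 or 15. Leaving out 1 array called 4.64% to 7.2% of all genes in this comparison. Without the bright arrays 0 passed, at 1.89, 1.57 and 1.42. With medians centred Plce1 alone passed, where the median of all genes moved from 0.01 to -0.22. These fits called 3.72% and 8.09% of all genes, against 10.4% in the main fit.

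The genes therefore stood in different orders over the groups. Ddn was lowest in unbound RNA of day 5, where it was near the floor, without overlap with the next group, and Nphs1 was at the floor in unbound RNA of both days. Synpo, Ptpro and Kirrel were lowest in unbound RNA of day 0, each without overlap with the next group, and so was Plce1, which overlapped with bound RNA of day 5. Podxl was lowest in unbound RNA of day 5, bound RNA of day 5 and unbound RNA of day 0, neighbours that overlapped. Cd2ap ran the other way, from 12.84 in unbound RNA of day 5 to 11.38 in bound RNA of day 5. Over the 15 arrays, the 15 pairs among Nphs1, Ddn, Synpo, Podxl, Ptpro and Plce1 had Pearson correlations of 0.505 to 0.969 (median 0.825), and the 13 pairs with Cd2ap or Kirrel -0.53 to 0.803 (median 0.03). The arrays share groups, and after subtracting group means the medians were 0.633 and 0.312.

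The genes with levels most like Nphs1 over these arrays, by Pearson correlation, were Myom2 (0.975), Rab3b (0.974), Myl7 (0.963), Clic3 (0.961), Tdrd5 (0.946), Rdh9 (0.941), Shisa3 (0.938), Ildr2 (0.931), Zcchc3 (0.927) and Lmx1b (0.924). Rab3b encodes a small GTPase of vesicle release and Lmx1b a homeobox factor that podocytes need. The genes most like Kirrel were Sertad4 (0.958), Svep1 (0.956), Cyp1b1 (0.943), Cdc23 (0.936) and Msrb3 (0.931). No gene stood in both sets.

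The probe sets of a gene differed. The levels above were read from 1422142_at for Nphs1, 1434797_at for Kirrel, 1420907_at for Cd2ap, 1436268_at for Ddn, 1434089_at for Synpo, 1448688_at for Podxl, 1417676_a_at for Ptpro and 1452398_at for Plce1. Nphs1, Ddn and Plce1 had 1 probe set, Synpo, Podxl, Ptpro and Kirrel had 2 and Cd2ap 3, and 13 of 14 passed the filter on low signal. Second probe sets of Kirrel, Synpo, Podxl and Ptpro were at or below the floor on 15, 12, 10 and 8 of the 15 arrays. Averaging all probe sets of a gene left 4 of the 7 calls of day 0, without Synpo (1.92, adjusted p = 0.0757), Podxl (2.05, 0.0667) and Kirrel (0.98, 0.0743). The second probe set of Ptpro was still at least 2.31-fold higher in bound RNA of day 0 (adjusted p over all probe sets 0.0479, with 2.53% of probe sets called higher). All 3 probe sets of Cd2ap were above the floor on every array. In bound against unbound RNA they differed by -0.51, -0.04 and 0.10 on day 0, with 0 called, and by -1.46, -1.27 and -1.34 on day 5, with 2 called lower (3.56% of all probe sets). From day 0 to day 5 in bound RNA they differed by -0.67, -1.08 and -1.35, and the last was called (6.23% of all probe sets).

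Other podocyte genes were read from lists chosen with earlier results of these data known. Of 30 further slit diaphragm and foot process genes, 25 were on the array as single-gene probe sets. On day 0 their median was 1.04 against -0.13 for all genes. In bound RNA 12 of them were then higher and 0 lower, where 4.81% of all genes were called higher. They included the actin crosslinker Actn4 (3.01 ± 0.55), the motor Myo1e (2.99 ± 0.70) and Coro2b (2.45 ± 0.44). On day 5 there were 3 higher and 0 lower, where 6.37% of all genes were called higher. The 3 were the ion channel Trpc6 (3.02 ± 0.78), Kirrel3 (2.04 ± 0.40) and the formin Inf2 (1.48 ± 0.28). From day 0 to day 5 in bound RNA, 10 of the 25 fell and 3 rose, where 9.99% of all genes were called lower and 13.7% higher. Among them Clic5 fell by 2.49 and Actn4, which was enriched on day 0, by 2.34. Trpc6 rose by 3.33 and Anln, an actin-binding protein of dividing cells, by 3.35. In unbound RNA over the same days 3 rose and 1 fell (6.43% of all genes were called higher and 3.93% lower). The change of enrichment passed for 0 of the 25. On day 2 in bound RNA 1 rose and 1 fell, where 9.25% of all genes were called.

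Of 7 podocyte transcription and cell cycle regulators, 6 were higher in bound RNA of day 0 (fitted median 4.21, or 3.71 with Lmx1b at its bound). Over all genes 4.81% were called higher on that day. Wt1, the zinc finger factor that podocytes require, differed by 5.55 ± 0.35, Foxd2 by 5.49 ± 0.56 and the cell cycle inhibitor Cdkn1c by 4.21 ± 0.54, and Lmx1b, at the floor in unbound RNA, was at least 13.1-fold higher (adjusted p = 0.0102). On day 5, 5 of the regulators were higher and 1, Foxc1, lower (median 1.75), with Wt1 at 3.16 ± 0.35. Over all genes 6.37% were called higher and 7.74% lower on day 5. From day 0 to day 5 in bound RNA 5 regulators fell and 0 rose (median -1.89), where 9.99% of all genes were called lower. Wt1 read 12.42, 11.72 and 11.49 on day 0 and 10.85, 9.51 and 10.48 on day 5 there. Of 16 podocyte secreted, surface and basement membrane genes, 3 were higher in bound RNA of day 0, Sema3g (3.48 ± 0.51), Thsd7a (3.13 ± 0.44) and Lamb2 (1.25 ± 0.28). On day 5 none of them was higher and 5 were lower, among them the basement membrane collagens Col4a3 and Col4a5, and in bound RNA 8 fell by day 5 (median -1.20).

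**Figure D3:**
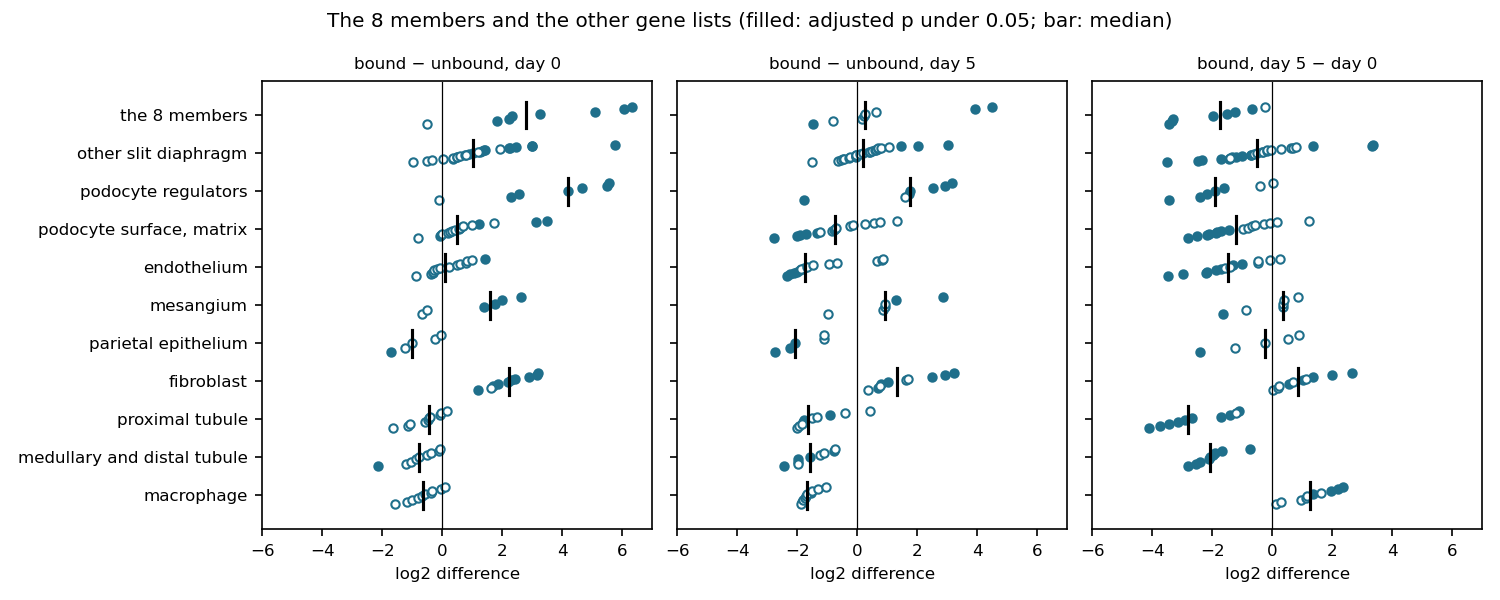
Differences on the log2 scale (horizontal axis) of each gene of the 8 members and of 10 other lists, in bound against unbound RNA of day 0 and of day 5 and in bound RNA of day 5 against day 0. Filled points passed at an adjusted p under 0.05 and bars are medians of fitted differences, which on day 0 are 2.79 for the members, 4.21 for podocyte regulators and 2.25 for fibroblast genes.

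Markers of other cell types moved in the same samples. In bound RNA between day 0 and day 5, 8 of 14 endothelial genes, 9 of 10 proximal tubule genes and 9 of 9 medullary and distal tubule genes fell. Their medians were -1.48, -2.81 (or -2.65 with Slc22a8 at its bound) and -2.08. Of fibroblast genes 5 of 10 and of macrophage genes 4 of 10 rose. Over all genes 9.99% were called lower and 13.7% higher. The summed normalized signal of the endothelial list lay between 14400 and 22227 on the arrays of day 0 and between 7098 and 9896 on those of day 5. For proximal tubule it lay at 30186 to 43595 and at 7682 to 15024, and for medullary and distal tubule at 22916 to 43657 and at 11203 to 15587. None of these ranges overlapped between the days, nor did those of the 8 members, at 25199 to 39991 and 6815 to 14177. The fibroblast sum was higher on day 5, at 45923 to 52671 against 29081 to 33602, and the macrophage sums overlapped, at 2408 to 7918 and 7291 to 17929. Of the defining markers, Slc22a8 was at the floor in bound RNA of day 5 and Itgam in bound RNA of both days. The part of these lists in the fall of the members was not tested.

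On day 0, when the members were high in bound RNA, proximal tubule genes were called higher in 0 of 10 and endothelial genes in 1 of 14 (Eng), with medians of -0.45 and 0.08. Over all genes 4.81% were called higher and 4.1% lower on day 0. Genes listed for the mesangium, the pericyte-like cells of the glomerulus, were higher in 4 of 6 (Des, Pdgfrb, Fhl2 and Itga8). Bound RNA is itself labelled as pericyte RNA, and whether these calls come from mesangium was not tested. Parietal epithelial genes of the glomerular capsule were lower in 1 of 5 and macrophage genes in 0 of 10. On day 5, bound RNA was higher than unbound in 6 of 10 fibroblast and 2 of 6 mesangial genes, and lower in 6 of 14 endothelial, 3 of 5 parietal, 3 of 10 proximal tubule, 5 of 9 medullary and distal tubule and 2 of 10 macrophage genes. Of all genes on day 5, 6.37% were called higher in bound RNA and 7.74% lower. In unbound RNA from day 0 to day 5, where Kirrel, Plce1 and Synpo rose, 5 of 10 fibroblast genes and 6 of 10 macrophage genes rose, as did 6.43% of all genes. Their summed signals were 7174 to 8926 and 27339 to 28244 for fibroblast, and 6801 to 9469 and 28433 to 31516 for macrophage genes, on the arrays of day 0 and day 5. Their part in the rise was not tested either, and Wt1 in unbound RNA read 6.65, 5.99 and 6.33 on day 0 and 7.23, 7.00 and 7.14 on day 5, without being called.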

How the data were processed

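Polysomal RNA was amplified in 1 round (NuGEN) and hybridised to 15 one-colour Affymetrix mouse arrays, per the labels. Linear intensities, 1 per probe set and array, were deposited by the authors. How they were summarised, background-corrected or scaled was not stated in the sources used here. They were transformed as log2 of value plus 1 and quantile normalized. The brightest probe set on average stood for its gene, and 16864 of 18193 genes were kept (over the 25th percentile of an array, on at least 3 arrays). limma 3.58.1 (R 4.3.3) fitted all 5 groups together, and p-values were adjusted by Benjamini-Hochberg across the genes kept. Simulated data were used to test the fit. Where a group mean was at or below the floor, its arrays were set to at least the floor and the fold is a bound. Of 45037 probe sets, 34945 had 1 gene, 932 several and 9160 none, named through the platform annotation.

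Members, lists and promoter motifs were chosen with earlier results of these data known. Named are all members, at most 4 called genes per list with the largest differences, the 10 genes most like Nphs1 and 5 most like Kirrel, and landmark genes. A gene of 1 list that this rule would name is not reported here. Counts beside lists cover every tested gene. Lists were other slit diaphragm genes, podocyte regulators, podocyte surface and matrix genes, endothelium, mesangium, parietal epithelium, fibroblast, proximal tubule, medullary and distal tubule, and macrophage. The other settings tried were another pseudocount, scaling, filters, probe set rules, fits of only the compared groups, array weights, prior, brightness and a stricter threshold, and leaving out each array or the bright ones.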

Additional observations from a re-analysis of the deposited data

How the results depend on the processing

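The counts of the 8 genes called (7 for enrichment on day 0, 3 on day 5, 0 for the change of enrichment, 0 and 7 for bound RNA on day 2 and day 5 against day 0, 0 for day 5 against day 2, and 3 for unbound RNA) changed as follows. Counts cover both directions. For enrichment on day 0 the mean of all probe sets gave 4, array weights 8 with Cd2ap lower, and leaving out the bright arrays 2. In that order 6.68%, 25.5% and 2.03% of all genes were called, against 8.91% in the main fit. For enrichment on day 5 array weights gave 5 (3 higher, 2 lower) and the mean of all probe sets 4. An adjusted p under 0.01, only the groups of the contrast and brightness gave 2 each, and leaving out the bright arrays 0. The shares of all genes called were 35.8%, 11.5%, 3.41%, 19.1%, 6.05% and 0.0%, against 14.1% in the main fit. For the change of enrichment a pseudocount of 16 gave 2, the 50th percentile filter 1, only the groups of the contrast 2, array weights 4 and the trended and robust prior 2. For bound RNA on day 2 the 50th percentile filter gave 1 and the trended prior 1, with 14.7% and 11.6% of all genes called, against 9.25%. For bound RNA on day 5 against day 0 an adjusted p under 0.01 gave 3, only the groups of the contrast 2, leaving out the bright arrays 3, median centring and array weights 5 each, and no filter, the mean of all probe sets, every probe set on its own and brightness 6 each. In that order 10.2%, 13.9%, 13.2%, 20.7%, 36.5%, 21.0%, 19.3%, 13.8% (of probe sets) and 22.8% were called over the whole array, against 23.7% in the main fit. For day 5 against day 2 the trended prior gave 1, with 1.16% of all genes called, against 0.587%. For unbound RNA an adjusted p under 0.01 gave 1, median centring 1 and the mean of all probe sets 1. Only the groups of the contrast and array weights gave 5 each (4 higher, with Ddn lower), and leaving out the bright arrays 0. The shares of all genes called were 4.29%, 8.09%, 8.42%, 25.2%, 31.3% and 3.72%, against 10.4% in the main fit. Leaving out 1 array at a time gave 7 to 7 for enrichment on day 0, 2 to 3 on day 5, 0 to 1 for the change, 0 to 1 for bound day 2, 4 to 6 for bound day 5 against day 0, 0 to 3 against day 2 and 1 to 2 for unbound RNA. In that order, the shares of all genes called were 3.1% to 6.82%, 5.12% to 10.3%, 0.006% to 0.042% and 5.9% to 16.2%. For bound day 5 against day 0, against day 2 and for unbound RNA they were 14.8% to 21.3%, 0.191% to 7.77% and 4.64% to 7.2%. Fewer arrays or genes enter several of these fits, and the cause was otherwise not tested.

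Signs turned only for values that had not passed. Without the bright arrays, enrichment on day 5 was -0.02 for Ptpro and -0.24 for Kirrel, and Cd2ap on day 2 -0.09. With the mean of all probe sets, Kirrel was 0.06 for the change of enrichment, -0.05 on day 2, 0.49 on day 5 against day 0 and 0.54 against day 2, and Cd2ap was -0.07 on day 2. With median centring, Cd2ap in unbound RNA was -0.11. Leaving out 1 array gave -0.30 to 0.42 for Podxl, -0.55 to 1.30 for Ptpro and -0.14 to 0.72 for Kirrel in enrichment on day 5, -0.20 to 0.58 for Kirrel and -0.09 to 0.29 for Cd2ap on day 2, and for Kirrel -0.60 to 0.26 on day 5 against day 0 and -0.84 to 0.03 against day 2. No paired analysis was possible because no number in the labels is shared between groups. Levels near the negative controls, as for Nphs1 in unbound RNA, have no order.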
